A study of Homo sapiens with 2 samples.

Results

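Broad anchor stretches are runs of neighbouring 2 kb bins that all carry chromatin loops in KYSE180 cells. They were chosen by the loop positions themselves. Every distinct bin at either end of an autosomal loop was taken, bins that touch were merged, and merged stretches of 8 kb or longer were kept. 2 clusters of bins on chromosomes 10 and 16 were left out. The rule gave 587 stretches of 22405 in all (2.62%), with 2793 of the 34644 anchors (8.06%) and a summed length of 5586 kb. Because the loops chose the members, their lengths and numbers of loops are given as descriptions without a test.

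The loops come from H3K27ac HiChIP. In this assay DNA ends are ligated to each other, and chromatin with histone H3 acetylated at lysine 27 is then captured. That both ends of a listed loop carry the mark comes from a later filter by the authors. KYSE180 is an established esophageal squamous cell carcinoma (ESCC) line that expresses BRDT, a bromodomain protein normally restricted to the testis. The cells were transfected with a non-targeting siRNA and 2 libraries of this 1 condition were made. The study's methods call the loops active and p63-associated, although the labels name H3K27ac as the target of both libraries, and whether p63 occupied the bins was not tested. The authors deposited 1 list for both libraries, so no value has a replicate spread and no test across samples was possible. All positions are on hg19, the build in the submitters' processing notes.

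H3K27ac marks active promoters and enhancers. At most active elements the mark covers a short region, whereas at some loci neighbouring enhancers merge into long acetylated domains. When such domains are dense in transcription factors and cofactors they are termed super-enhancers (SEs), and they are known for lying near genes that define the identity of a cell. In squamous cells the transcription factor ΔNp63 occupies many of them. HiChIP reports such a domain as a run of anchors when reads from all of its bins are ligated to distant acetylated bins.

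The list gives 2 whole numbers for each loop, read as the contacts (read pairs) joining its bins and the coverage of its first bin. Of the 31803 autosomal loops, 6927 had an end in a broad stretch. This is 21.8% (95% Wilson interval 21.3 to 22.2%). By ends, the stretches held 8.06% of the anchors and 12.5% of the loop ends. Most of these loops rested on 1 contact, namely 6603 of 6927 or 95.3%. All intervals here cover counting error only, and bins of 1 stretch and pairs that share a stretch are not independent.

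Long stretches were rare and their number fell with every step in length up to 18 kb. There were 327 stretches of 8 kb, 159 of 10 kb, 60 of 12 kb, 20 of 14 kb and 13 of 16 kb. Only 8 stretches reached 18 kb and 6 reached 20 kb. Just outside the limit lay 2032 stretches of 6 kb. Stretches of 6 kb had a median of 6 loops (interquartile range 4 to 8) and those of 8 kb a median of 9 (6 to 12). The interquartile ranges of the loop numbers on the sides of the limit overlapped. The number of stretches fell by a larger factor across the limit than from 4 to 6 kb or from 8 to 10 kb.

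**Figure D1:**
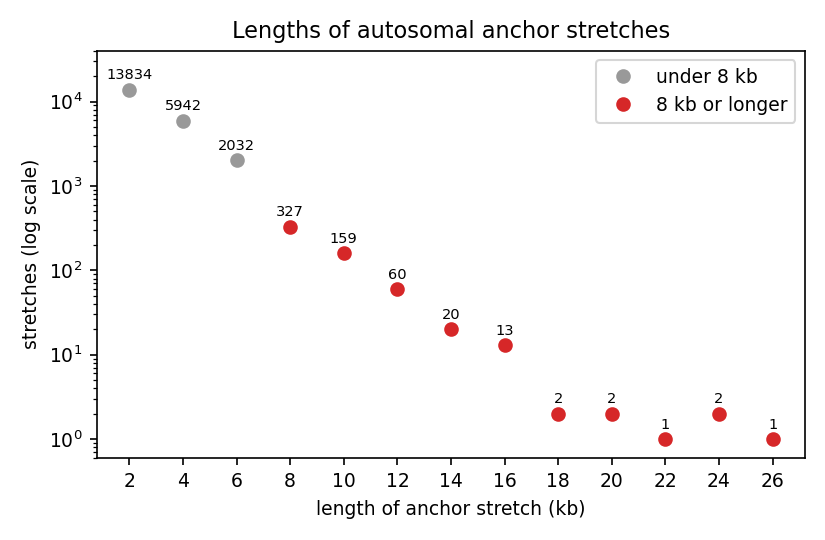
Number of autosomal anchor stretches (log scale) against their length in kb, with the stretches of 8 kb or longer in red and shorter ones in grey. Counts fall from 13834 single bins to 327 stretches of 8 kb and 1 of 26 kb.

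The genes whose SEs and loops the study drew are FAT2, KRT14 and PTHLH. FAT2 encodes an atypical cadherin, KRT14 the type I keratin of basal squamous cells and PTHLH a secreted hormone-like peptide related to parathyroid hormone. The placement of the 5′ ends and SEs of these genes on the list is described with the processing. By it, 12 distinct anchor stretches lay at the 5′ ends or in the SEs. Of them, 7 were 8 kb or longer, against 587 of 22405 (2.62%) over all autosomal stretches. A broad stretch lay at the 5′ end of 2 of the 3 genes and in each of the 4 SEs drawn. The placement came from matching drawn loops to this same list, so anchors at these loci were given in advance. The counts describe these loci only and do not test whether SEs hold broad stretches.

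At FAT2, the 5′ end lay in a stretch of 8 kb from 150948001 to 150956000 on chromosome 5. It had 12 loops with 13 contacts to 6 other stretches, and 10 of these loops ran to higher positions, where the SE lies. The SE held a stretch of 8 kb from 150994001 to 151002000, with 13 loops and 16 contacts. It also held a stretch of 14 kb from 151008001 to 151022000, again with 13 loops and 16 contacts. The 3 stretches formed a closed triangle. The 5′ end was joined to each of the SE stretches by 4 loops with 4 contacts, and the SE stretches were joined to each other by 5 loops with 8 contacts.

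At PTHLH, the 5′ end lay in a stretch of 10 kb from 28122001 to 28132000 on chromosome 12, which also reaches into the first SE. It had 43 loops with 48 contacts to 21 other stretches. Of its loops, 37 ran to higher positions and 6 to lower ones, and the median coverage of its first bins was 74. Beside it, across a gap of 2 kb, lay a stretch of 12 kb from 28134001 to 28146000 with 17 loops to 10 stretches. The second SE held a stretch of 8 kb from 28172001 to 28180000 with 14 loops. The stretch at the 5′ end was joined to the 12 kb stretch by 6 loops with 6 contacts and to the 8 kb stretch by 6 loops with 7 contacts. The 12 kb and 8 kb stretches were joined to each other by 1 loop.

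At KRT14, the stretch at the 5′ end from 39742001 to 39748000 on chromosome 17 was 6 kb long and fell just short of the limit. It had 9 loops with 1 contact each. The SE held a broad stretch of 12 kb from 39804001 to 39816000 with 28 loops and 31 contacts to 18 stretches. Of these 28 loops, 21 ran to lower positions, where KRT14 lies, and 3 ended in the stretch at the KRT14 5′ end. Of the remaining loops, 1 lay inside the SE stretch and the others led to other stretches.

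The longest stretches lay on chromosomes 1, 3 and 19. The longest of all was 26 kb, from 209526001 to 209552000 on chromosome 1, with 50 loops and 58 contacts. A stretch of 24 kb followed 18 kb further on, from 209570001 to 209594000, with 69 loops and 80 contacts. Another stretch of 10 kb, from 209600001 to 209610000, had 37 loops with 45 contacts and a median first-bin coverage of 125. Together these 3 stretches covered 60 of 84 kb.

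They were mostly joined to each other. The 26 kb and 24 kb stretches shared 26 loops with 29 contacts, more than any other pair of broad stretches. The 24 kb and 10 kb stretches shared 16 loops with 22 contacts, and the 26 kb and 10 kb stretches 7 loops with 9 contacts. Of the 107 loops with an end in the 3 stretches, 61 (57.0%) had both ends in them. Loops with 2 or more contacts made up 10 of the 49 loops between them, or 20.4% (Wilson interval 11.5 to 33.6%). The most contacts of a single loop was 3. Of the loops that left the 26 kb stretch, 42 ran to higher positions, towards the other two, and 4 to lower ones.

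The stretch with the most loops was 24 kb long and lay on chromosome 3 from 189612001 to 189636000. Its 78 loops carried 82 contacts and reached 32 other stretches, of which 8 were broad. Between 188988001 and 189664000, 676 kb in all, lay 7 broad stretches with a summed length of 92 kb. Of the 21 pairs they can form, 20 were joined, by 70 loops with 82 contacts. The pair in this row with the most contacts comprised a stretch of 8 kb from 189070001 to 189078000 and one of 14 kb from 189100001 to 189114000, joined by 9 loops and 14 contacts. The 14 kb stretch had a median first-bin coverage of 80. These positions lie in a segment of chromosome 3 whose median coverage was high, as described with the coverage below.

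The fourth longest stretch, 22 kb from 12886001 to 12908000 on chromosome 19, differed from the 3 before it in coverage. Its median first-bin coverage was 22, against 33, 50 and 54 in the 26 kb and both 24 kb stretches. It had 45 loops to 24 stretches, 7 of them broad, and 6 of the loops led to a broad stretch of 10 kb only 4 kb away. A stretch of 20 kb on chromosome 14 from 77412001 to 77432000 had 33 loops. Another of 20 kb on chromosome 1 from 95110001 to 95130000 had 21. Length and loop number did not rank alike, since a stretch of 18 kb on chromosome 20 from 34672001 to 34690000 had 14 loops and one of 16 kb on chromosome 17 from 19620001 to 19636000 had 10.

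**Figure D2:**
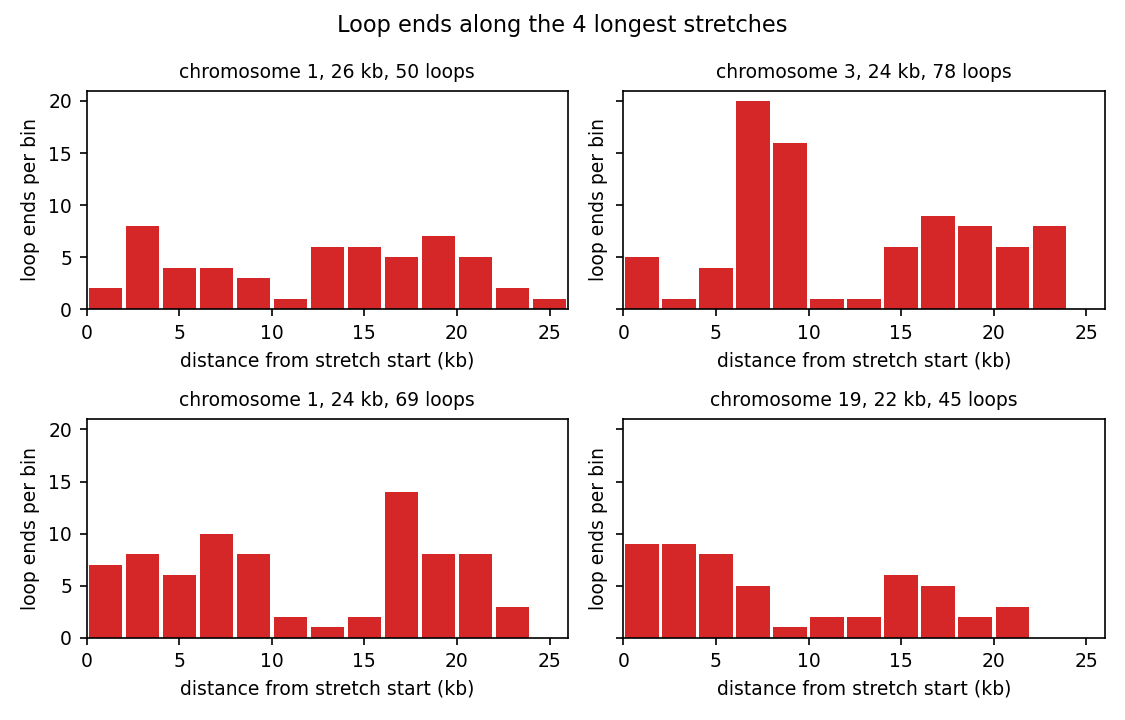
Loop ends per 2 kb bin along the 4 longest stretches, against the distance in kb from the start of the stretch. The ends are uneven, with up to 20 ends in 1 bin of the chromosome 3 stretch beside bins with 1.

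Within a stretch the loops were unevenly spread over the bins. In the 24 kb stretch of chromosome 3, adjacent bins at 6 and 8 kb from its start had 20 and 16 loop ends, and 3 of its 12 bins had 1 each. The 24 kb stretch of chromosome 1 had a peak of 10 ends at 6 kb and one of 14 at 16 kb, with 1 to 2 ends in each of the 3 bins from 10 to 14 kb. The chromosome 19 stretch likewise had up to 9 ends per bin in its first 3 bins, 1 end at 8 kb and 6 at 14 kb. These 3 profiles each showed groups of well-used bins bridged by bins with few loops.

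Over all members, the most used bin took a median of 37.5% of the loop ends of its stretch (interquartile range 30.8 to 43.9%), and at least 50% in 100 stretches. The extreme was a stretch of 8 kb on chromosome 17 from 7588001 to 7596000, where 1 bin had 15 of 19 loops. In 21 stretches every bin had 1 loop, and in 114 no bin had only 1. Interior bins had a mean of 3.12 loops and bins at the edges 2.45, with 32.6% and 40.7% of bins at 1 loop, respectively. The median first-bin coverage was 19 in the interior and 15 at the edges. By stretch, the interior mean exceeded the edge mean in 320 of 587, fell below it in 192 and equalled it in 75. An edge is by the rule a bin next to one without a loop.

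Longer stretches had more loops, and a higher mean number per bin. The rise in loops with length is in part fixed by the rule, since every bin carries at least 1. The median number of loops was 9 in stretches of 8 kb, 11 at 10 kb, 14 at 12 kb, 18.5 at 14 kb and 33 at 16 kb or longer. Over all 587 members it was 10 (interquartile range 7 to 15.5, range 4 to 78), against 1, 3 and 6 in stretches of 2, 4 and 6 kb. The mean per bin was 1.43 in single bins, 1.85 at 4 kb, 2.24 at 6 kb and 2.84 in the members, and reached 4.33 at 16 kb or longer. The median per bin changed less. It was 1 in single bins and at 4 kb, 2 at each length from 6 to 14 kb and 3 at 16 kb or longer. Among the members alone, the Spearman correlation of length with loops per bin was 0.151 over 587 stretches that come from the same libraries. Members had a median of 8 partner stretches (interquartile range 6 to 12) and no fewer than 2, so no broad stretch depended on a single partner.

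**Figure D3:**
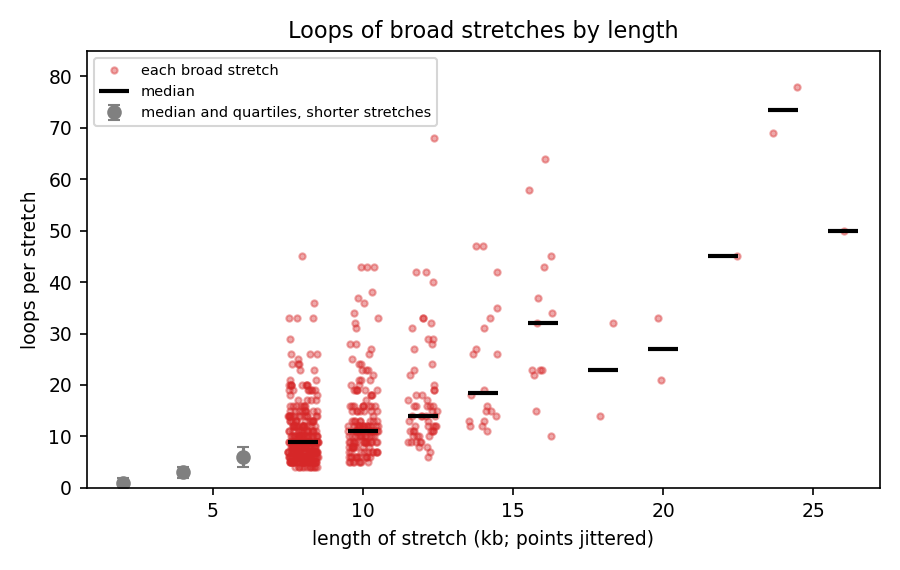
Loops per stretch against length in kb, with each broad stretch as a point, medians as black bars, and the median with quartiles of stretches of 2, 4 and 6 kb in grey. The medians rise from 9 loops at 8 kb to 18.5 at 14 kb, while single stretches of 12 kb reach 68.

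The members with the most partners lay on chromosome 11. Of the 6 members with 30 or more partner stretches, 4 lay there between 66 and 68 Mb. These positions lie in a segment of chromosome 11 whose median coverage was high, as described with the coverage below. A stretch of 12 kb from 67076001 to 67088000 had the most, 41, with 68 loops, 25 of them on 1 bin. One of 8 kb from 66884001 to 66892000 had 35 partners and 45 loops, with 27 on 1 bin, the most of any bin in a broad stretch. The 13 members between 66 and 68 Mb had 24 to 68 loops with a median of 33, although only 1 of them was longer than 12 kb. Many loops on a short stretch and many bins in a row were thus different features of the list. Of all members, 94 of 587 (16%) had 20 or more loops and 19 had 40 or more.

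Broad stretches were spread unevenly over the chromosomes. Chromosome 19 held 70, chromosome 17 held 62, chromosome 3 held 52 and chromosome 11 held 50. These 4 chromosomes held 39.9% of the members and 28.5% of the anchors. On chromosome 3, 49 members lay between 120 and 200 Mb, and on chromosome 11, 29 lay between 65 and 70 Mb. Both segments had a high median coverage, as described below. At the other end, chromosome 4 held 2, chromosome 21 held 3 and chromosome 18 held 6. The share of anchors that lay in broad stretches ran from 1.37% on chromosome 4 to 13.7% on chromosome 19. Chromosomes 1 and 2 had many anchors, 3452 and 2004, but only 5.07% and 3.04% of them lay in broad stretches. Over the 22 autosomes, the number of members had a Spearman correlation of 0.883 with the number of anchors and 0.727 with the number of protein-coding genes in RefSeq. Relative to these genes, chromosome 14 had the most members, 5.95 per 100 genes, and chromosome 4 the fewest, 0.26.

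**Figure D4:**
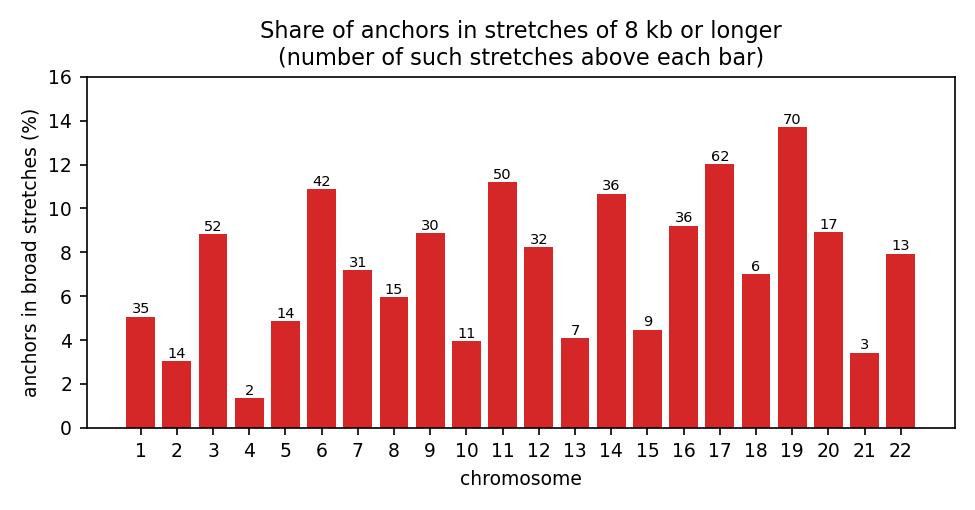
Percent of the anchors of each autosome that lie in stretches of 8 kb or longer, with the number of such stretches above each bar. Chromosomes 19 and 17 lie highest, at 13.7% and 12%, and chromosome 4 lowest, at 1.37%.

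Within chromosomes many members lay near another member. The same distances for shorter stretches or for all anchors are not given here, so closeness is not shown to be particular to the members. The median distance to the nearest other member was 88 kb (interquartile range 22 to 390 kb). For 235 of 587 members it was 50 kb or less, and for 95 (16.2%) it was over 1 Mb. The 1 Mb window with the most members was 26 to 27 Mb on chromosome 6, with 10 members that held 50% of the 104 anchors there. It was followed by 67 to 68 Mb on chromosome 11 with 9 members (34.8% of 138 anchors) and 46 to 47 Mb on chromosome 22 with 8 (31.6% of 136). In the last of these, the longest member was 14 kb. A further 148 windows held a single member.

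The borders of the stretches were often narrow gaps. A single bin without a loop separated 176 of 587 members from the next anchor, or 29.98%, compared with 19.6% of the stretches of 6 kb and 18.7% of the single bins. In the PTHLH region such a gap divides the stretches of 10 kb and 12 kb. A bin without a listed loop may have loops below the threshold of the list, and whether it does was not tested.

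Loops inside a stretch were possible only in part of the members. The shortest listed span is 10 kb, so only stretches of 12 kb or longer can hold both ends of a loop. Of these 101 stretches, 33 had at least 1 such loop, or 32.7% (Wilson interval 24.3 to 42.3%). The 67 loops, which spanned 10 to 20 kb and had 74 contacts, joined 18.6% (14.9 to 22.9%) of the 361 pairs of bins that lie far enough apart. The share for bins of different stretches at these same short distances is not given, so 18.6% is not shown to be high. The 4 longest stretches held 26 of the 67. The 24 kb stretch of chromosome 1 had 8 on 28 pairs of bins, that of chromosome 3 had 7 on 28, the chromosome 19 stretch 7 on 21 and the 26 kb stretch 4 on 36. In these 4 the share of joined pairs was 23%, and in the other 97 it was 16.5%. Loops inside stretches had 2 or more contacts in 8.96% of cases (4.17 to 18.2%), and other loops of 10 to 20 kb in 8.77% (7.98 to 9.64%).

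Loops between different broad stretches numbered 927, with 1009 contacts, or 2.91% of all autosomal loops (2.74 to 3.11%). They joined 435 pairs of members, of which 244 (56.1%) rested on 1 loop and 43 on 5 or more. At least 1 other broad stretch was a partner of 353 members (60.1%), and 234 had none. The other ends of the loops of broad stretches mostly lay in short stretches. Of the 6927 loops with an end in a member, 35.7% led to a stretch of 4 kb, 31.2% to one of 6 kb, 18.7% to a single bin and 13.4% to another member. The loops between members had a median span of 66 kb (interquartile range 32 to 214 kb). Loops from a member to a shorter stretch had a median of 110 kb and loops with no end in a member 128 kb.

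Pairs of broad stretches were joined more often than pairs of shorter stretches at every distance examined. At a gap of up to 50 kb, 82.8% of 151 pairs of members were joined (76.0 to 88.0%), against 57.9% of pairs of 6 kb stretches and 34.7% of pairs of 4 kb stretches. At 100 to 200 kb the shares were 45.9% (38.1 to 54.0%), 21.2% and 11.2%. At 2 to 5 Mb they were 1.73% (1.17 to 2.57%), 0.669% and 0.277%. The loops that chose the members are the ones counted here, so these shares are a description, and longer stretches hold more pairs of bins by construction.

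Counted per pair of bins, members did not exceed single bins beyond the intervals at any distance examined, and lay below them at 10 to 50 kb. They lay above the 6 kb stretches, with overlapping intervals at 10 to 50 kb. Of the pairs of member bins 10 to 50 kb apart that lie in different stretches, 12% were joined (10.9 to 13.1%), against 11% (10.3 to 11.8%) for bins of 6 kb stretches, 12.3% for those of 4 kb stretches and 14.9% for single bins. At 100 to 200 kb the members had 3.98% (3.39 to 4.67%), the 6 kb stretches 2.76% (2.45 to 3.11%) and single bins 3.87% (3.57 to 4.19%). At 500 kb to 1 Mb the values were 0.820% (0.645 to 1.04%) and 0.452% (0.383 to 0.533%), and single bins had 0.828%. These shares too are a description of the loops that chose the members. Every bin compared is an anchor with at least 1 loop, and for a single bin that loop is a larger part of its total.

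**Figure D5:**
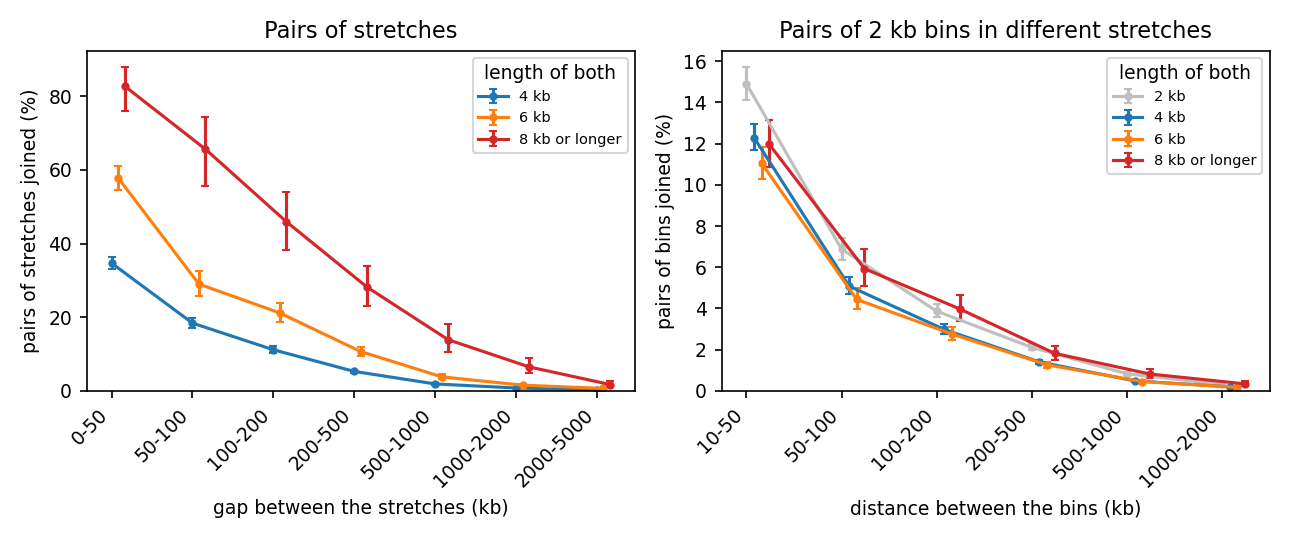
Left, percent of pairs of stretches joined by a loop against the gap between them in kb. Right, percent of pairs of 2 kb bins in different stretches that are joined, against their distance in kb, with lines for the length of both stretches and bars for 95% Wilson intervals. Members lie above all others on the left (82.8% at up to 50 kb), while on the right the lines lie close together (12% for members and 14.9% for single bins at 10 to 50 kb).

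The rule did not use the number of contacts per loop directly. The loops were called as significant contacts, however, so contacts helped decide which bins are listed and could be merged. Among loops of 10 to 50 kb, 9.95% of those between members had 2 or more contacts (7.33 to 13.4%), against 8.15% (6.99 to 9.47%) of loops from a member to a shorter stretch and 6.01% (5.49 to 6.57%) of loops with no end in a member. At 50 to 200 kb the shares were 7.64% (5.15 to 11.2%), 3.85% (3.07 to 4.81%) and 1.92% (1.63 to 2.26%). These intervals treat loops that share a stretch as independent, which they are not. From 200 kb to 1 Mb they were 5.08% (2.70 to 9.38%), 1.32% (0.868 to 2.02%) and 0.872% (0.680 to 1.12%). Above 1 Mb, 1 of 67 loops between members had 2 or more contacts, which cannot be separated from the other kinds at this depth. No test was run. The median first-bin coverage was higher in members than in other anchors, as given below. Coverage by kind of loop is not given, and its part in these shares was not tested. Over all spans, 71 of the loops between members had 2 or more contacts. Of these 71, 10 joined the 3 stretches of chromosome 1 between 209526001 and 209610000.

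The coverage of first bins had a median of 17 in the members (interquartile range 11 to 29, 2000 bins) and 12 in the other anchors (8 to 19, 19478 bins). By length, it was 11 in single bins, 13 at 4 kb, 15 at 6 kb, 16 at 8 kb and 25 at 16 kb or longer. The segments of chromosome 11 from 65 to 70 Mb and of chromosome 3 from 120 to 200 Mb had a high median coverage in members and other anchors. There it was 30 in the members and 22 in the other anchors. Without these segments, which held 29 and 49 members, it was 15 and 11. Extra copies of a segment and a stronger mark cannot be told apart in this list, and the part of coverage in the number of loops was not tested.

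Joined members formed networks, and the largest of these reached over several megabases. Others were compact, such as 1 of 7 members on chromosome 12 that covered 0.296 Mb. Of the 435 joined pairs, 244 rested on 1 loop, and how far the networks reach without such pairs was not tested. Counting members linked directly or through other members, there were 80 networks of 2 or more, of which 37 were single pairs and 5 had 10 or more members. The largest lay on chromosome 11 from 62308001 to 70054000, with 38 members and 83 joined pairs. On chromosome 6 from 26042001 to 31796000 a network of 21 members had 56 joined pairs and 109 loops. Chromosome 19 had networks of 16 and 13 members. The network of chromosome 3 from 187454001 to 193864000 had 12 members only, but 85 loops over 32 joined pairs.

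On chromosome 6, the members between 26 and 28 Mb formed 2 blocks far apart. Of these 14 stretches, 10 lay from 26042001 to 26580000 and 4 from 27776001 to 27866000, so that over 1 Mb without a broad stretch lay between the blocks. They were joined by 83 loops over 41 pairs. Of these loops, 17 spanned at least 1 Mb and ran from one block to the other, over 13 pairs. The most connected stretch was 16 kb, from 27830001 to 27846000, with 64 loops to 32 stretches, and shared 14 loops with 16 contacts with a stretch of 12 kb from 27798001 to 27810000. In the first block, a stretch of 16 kb from 26194001 to 26210000 had 43 loops and 12 broad partners.

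Other pairs with many loops were mostly close neighbours. On chromosome 18, a stretch of 8 kb and one of 16 kb that lie 4 kb apart shared 9 loops with 12 contacts. On chromosome 17, 3 stretches from 57830001 to 57924000 were joined by 8, 7 and 6 loops. On chromosome 7, a stretch of 10 kb from 98726001 to 98736000 shared 7 loops with 12 contacts with one of 8 kb across a gap of 2 kb. The widest gap among pairs with 7 or more loops was 186 kb, on chromosome 3, between a stretch of 12 kb from 181426001 to 181438000 and one of 14 kb from 181624001 to 181638000, with 7 loops of 1 contact each.

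Broad stretches mostly looped in both directions. In 14 members all outward loops ran to lower positions, in 16 all ran to higher ones, and in 178 (30.3%) at least 75% ran the same way. The median span of a member's loops was 102 kb (interquartile range 55 to 179 kb), and 346 members (58.9%) had a loop of 1 Mb or more. By loop, spans of 1 Mb or more made up 7.23% of loops between members and 9.84% of loops from a member to a shorter stretch. They made up 12.3% of loops with no end in a member. At least 1 loop with 2 or more contacts was found at 231 members (39.4%). The same counts are not given here for shorter stretches, which have fewer loops. None of these counts is therefore shown to be particular to the members.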

How the data were processed

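H3K27ac HiChIP libraries of KYSE180 cells with non-targeting siRNA were analysed (2 libraries, 1 group). Per the paper's methods, the authors processed reads with HiC-Pro, called loops, described as active and associated with p63, by FitHiChIP (Peak-To-All) and discarded those with an end lacking H3K27ac. Versions and thresholds are not given in the sources used here. The deposited list holds counts without normalization in 2 unnamed columns, read from their order and values as contacts and first-bin coverage. The coverage was constant in each of 21636 first bins and was exceeded by the contacts in 0. The depth of the libraries is unknown.

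Bins were merged as described, and the merging was tested on simulated data. Shares carry 95% Wilson intervals. Members, gene lists and comparisons were chosen with earlier results of these data known. Gene annotation and sequence of hg19 were not used here, so gene lists, gene 5′ ends, motifs and marker genes of the cell type were not analysed and no sequence is shown. RefSeq (GRCh38.p14) served only for gene numbers per chromosome. FAT2, KRT14 and PTHLH were to be named with genes in the longest and most connected stretches, and only these 3 could be placed. Their positions come from an earlier match of the loops drawn by the study to the list, may be off by 1 bin and were not recomputed. The tools were networkx 3.6.1, pandas 2.3.3 and scipy 1.17.1 under Python 3.11.15, with numpy 2.4.6 and, for the plots, matplotlib 3.10.9. Alternatives were other minimum lengths, merging across 1 bin, longer spans, 2 or more contacts, X and the left-out clusters, and, for coverage, leaving out 2 segments.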

Additional observations from a re-analysis of the deposited data

Results flagged for a closer look

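The 2 clusters left out by the rule held 5 further stretches of 8 kb or longer, of 8 to 12 kb, on chromosomes 10 and 16. They were looked at because they carry signal outside the members. Their 133 loops carried 717 contacts, and 65.4% (95% Wilson interval 57.0 to 73.0%) of the loops rested on 2 or more, against 4.68% of the loops of the members. Chromosome X had 217 stretches and 0 of 8 kb or longer.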

How the results depend on the processing

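Alternatives were run for 6 results, giving 30 values, of which 24 moved and 6 stayed within the tolerance. The tolerance was 1.5 times for numbers of stretches or loops and the 95% interval of the value itself for shares, medians and means. With minimum lengths of 6, 10 and 12 kb there were 2619, 260 and 101 stretches in place of 587. They held an end of 52.2, 12.9 and 6.87% of loops in place of 21.8%, and 4912, 383 and 134 loops joined them in place of 927. Loops inside were found in 1.26, 12.7 and 32.7% in place of 5.62%. With bins merged across 1 missing bin these values were 1388 stretches, 40.2% of loops, 2612 loops between stretches and 14.7% with loops inside. With loops spanning at least 20 kb there were 482 stretches with 721 loops between them, 19.5% of loops and 0.415% with loops inside. With 2 or more contacts 3 stretches of 8 kb or longer were left, with 1.5% of loops, 0 loops between stretches and 0% with loops inside, so the broad stretches rest on single-contact loops. With X and the clusters, 592 stretches and 998 loops between them were found. The median first-bin coverage was 15 in place of 17 without the segments of chromosomes 3 and 11. Counted once per pair of stretches, there were 1.99 loops per bin in place of 2.84.

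No paired analysis was possible because the study made 1 list from both libraries of a single condition, and leaving out a replicate was not possible either. The share of stretches with a protein-coding 5′ end, with its alternatives, was not run because it needs gene positions on the build of the list. Loops of 1 contact limit every count given here, and the depth of each library is unknown.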
